A study of Mus musculus with 65 samples.

Results

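HSD2 neurons are neurons of the nucleus of the solitary tract (NTS) named for 11-beta-hydroxysteroid dehydrogenase type 2, the product of Hsd11b2. Of the 65 single HSD2 neurons deposited, 13 held astrocyte transcripts by a rule on 3 genes and 47 held none above its limit. The rule took Slc1a3, a glutamate transporter of astrocytes, Aqp4, their water channel, and Gja1, their main gap-junction protein. A cell was counted as carrying when at least 2 of the 3 exceeded 10 CPM (read counts scaled by a total for each cell), and as clean when none did. The 5 cells with 1 of the 3 above 10 CPM entered neither group. The groups were thus chosen by expression, so every value below describes them and no test between them was run.

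The cells came from male mice of mixed strain with 2 alleles, Hsd11b2-Cre and Ai9(lox)tdTomato. Once Cre has acted in a cell, Ai9 makes it red for good, so the colour marks past as well as present activity of the driver. Mice ate standard chow (33 cells) or a low sodium diet (32 cells). Red cells were picked by hand from tissue digested with papain, and each was frozen and made into a library of polyA RNA with Smart-Seq2, which copies whole transcripts of 1 cell, and Nextera XT. The tissue label is the NTS, while the protocol text names Arc-ME. No animal is named in the labels, and each diet was treated as 1 sample. An SD given here is the spread over cells, and intervals are exact (Clopper-Pearson) 95% intervals that cover counting error over cells only.

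Astrocytes wrap synapses and vessels with fine processes. They take up glutamate, buffer potassium and water, make apolipoprotein E and store metals in metallothioneins. A library made from 1 picked neuron can also hold transcripts of neighbouring cells. The source of the astrocyte transcripts in these libraries was not tested.

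The groups were not balanced by diet. Of the chow cells, 10 of 33 carried astrocyte transcripts (30.3%, interval 15.6% to 48.7%), and of the low-sodium cells 3 of 32 did (9.38%, 1.98% to 25.0%). The clean group held 20 chow and 27 low-sodium cells. The carrying cells were chow neurons 18, 20, 21, 29, 35, 36, 45, 55, 59 and 66 and low-sodium neurons 3, 9 and 30. For this reason each difference between carrying and clean cells was also taken within each diet.

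Slc1a3 ran from 18.1 to 2034 CPM in the carrying cells, with a median of 319 CPM. Aqp4 ran from 4.83 to 410 CPM (median 46.0) and Gja1 from 0 to 572 CPM (median 50.0). In low-sodium neurons 3, 9 and 30, Slc1a3 stood at 44.1, 424 and 235 CPM. These values chose the cells and are no finding. Just inside the rule were chow neuron 29 (Slc1a3 18.1, Aqp4 21.7 and Gja1 0 CPM), chow neuron 59 (62.5, 44.7 and 0 CPM) and low-sodium neuron 3 (44.1, 4.83 and 23.6 CPM). Just outside it were the 5 cells left out: chow neurons 65 (Slc1a3 10.7 CPM), 32 (27.7 CPM) and 63 (123 CPM) and low-sodium neurons 7 (Slc1a3 18.2 CPM) and 57 (Aqp4 77.0 CPM). The clean cell nearest the limit had 9.996 CPM of Slc1a3. A read was worth 0.161 to 16.1 CPM, depending on the cell, so the limit stood for different numbers of reads. In chow neuron 45, a carrying cell, 1 read was worth 16.1 CPM and alone passed the limit. Its Slc1a3, Aqp4 and Gja1 values were 32.2, 16.1 and 32.2 CPM.

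Depth and complexity differed between the groups. The reads of a carrying cell numbered 50072 to 2303106 (median 960341) and its detected genes 5717 to 11467 (median 8717). Clean cells had 50536 to 5310676 reads (median 577747) and 4700 to 9726 genes (median 8017). The 3 low-sodium carrying cells had 10202 to 11193 genes, more than any clean cell. Differences were therefore also computed with every cell thinned to 50072 reads. In 8 clean low-sodium cells, in 1 low-sodium cell left out and in 0 carrying cells, the CPM summed to over 1200000, so their scaling total was smaller than their reads in the listed genes.

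The first question was whether other astrocyte genes followed the 3 genes of the rule. Most of them did, by unequal amounts. Of a list of 65 other astrocyte markers, 55 were among the listed genes, and 40 of the 55 were higher in carrying cells by at least 1 on the log2(CPM + 1) scale within chow and within low sodium alike. No marker was lower in this way, and the median difference was 3.39. Over 11515 genes above 0 in at least 10 compared cells, 14.5% passed the same limit upward and 0.278% downward, and the median difference of these genes was 0.40 (0.21 in chow and 0.96 in low sodium). Without that filter, which 48 of the 55 markers passed, 15.1% of 11872 genes were higher and 0.27% lower. With each diet's median subtracted, 34 of the 55 markers stayed past the limit, against 7.06% of genes upward and 2.23% downward. In total 1665 genes were higher and 32 lower, so that 98.1% of the called genes were higher. After that subtraction 813 were higher and 257 lower (76.0% higher), and with the log2 ratio of mean CPM in place of the mean log2 value 678 were higher and 275 lower (71.1% higher).

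**Figure D1:**
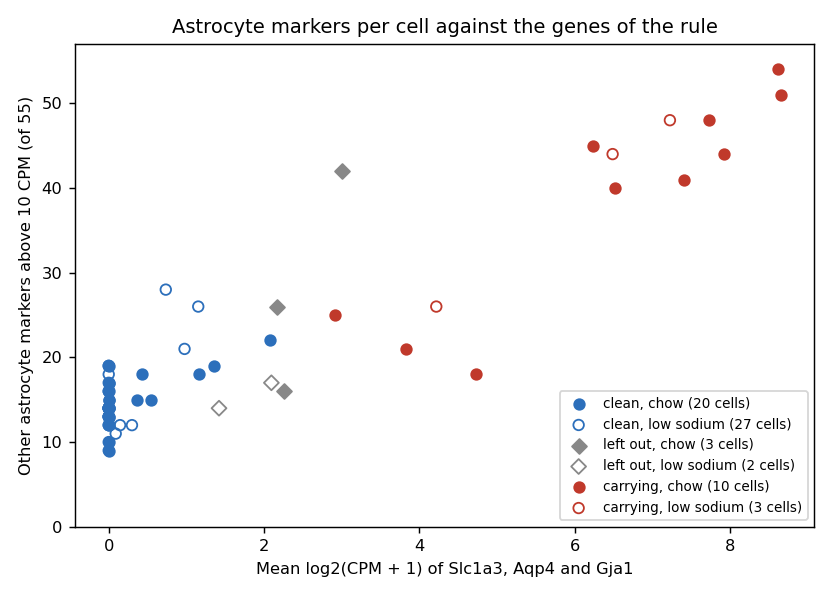
Each point is a cell; the horizontal axis is the mean log2(CPM + 1) of Slc1a3, Aqp4 and Gja1, and the vertical axis counts the other astrocyte markers above 10 CPM, of 55. Colours give the groups, filled symbols chow and open symbols low sodium. Of the 13 carrying cells 9 hold 40 to 54 markers, and the other 4 lie within the range of the clean cells, 9 to 28.

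The number of astrocyte markers per cell varied widely among carrying cells. It was 40 to 54 of 55 markers above 10 CPM in 9 carrying cells, among them low-sodium neurons 9 (48 markers) and 30 (44 markers). It was 18 to 26 in the other 4, which were chow neurons 45 (18), 59 (21) and 29 (25) and low-sodium neuron 3 (26). Clean cells held 9 to 28 such markers with a median of 14, so the 4 cells overlap the clean group in this count and the 9 do not. Chow neuron 45 also had the fewest reads of the carrying cells, 50072. The summed level of the 55 markers was 2270 to 26882 CPM in carrying cells (median 8491) and 1668 to 18790 CPM in clean cells (median 2968). As a share of the cell's CPM sum, the markers made up 0.282% to 2.59% (median 0.955%) in carrying cells and 0.189% to 0.973% (median 0.311%) in clean cells. Both clean maxima are those of low-sodium neuron 45, a cell of high CPM sum with 28 astrocyte markers, 20024 CPM of oligodendrocyte and 6056 CPM of mural markers. Without it they were 9178 CPM and 0.542%, and the ranges of the groups still overlap.

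**Figure D2:**
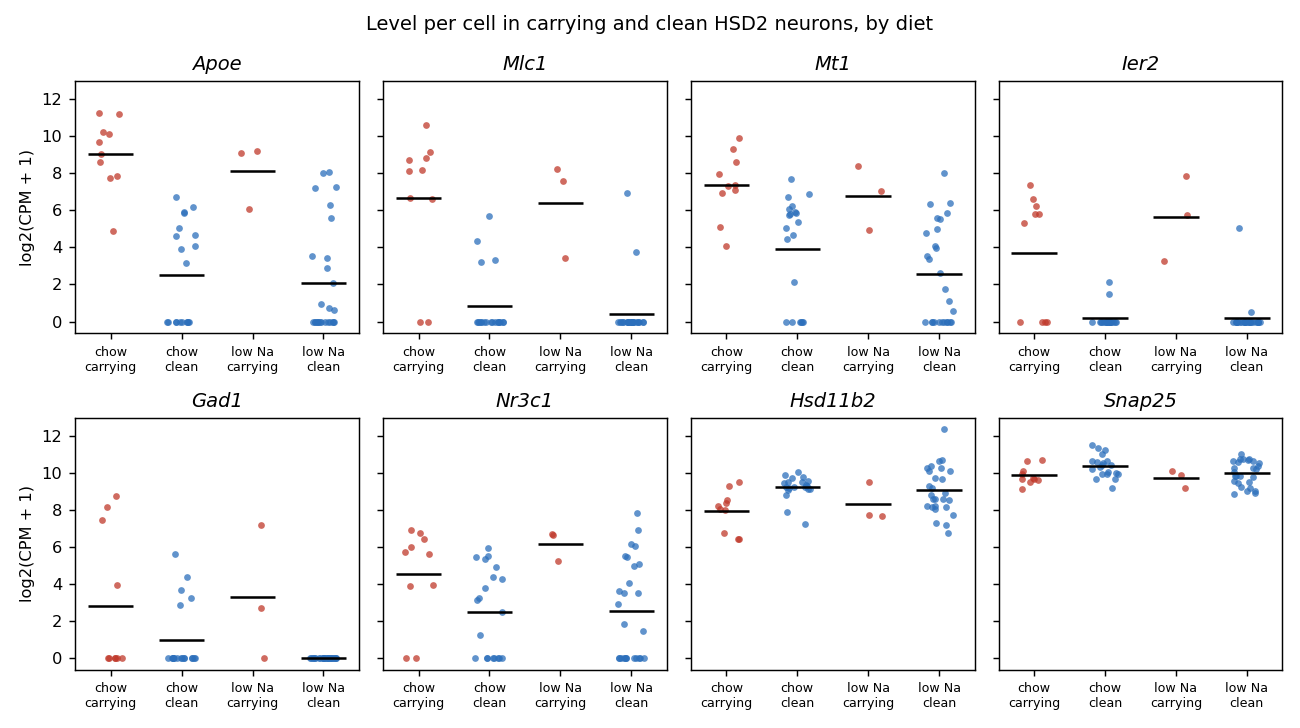
Each point is a cell, with log2(CPM + 1) on the vertical axis and the 4 combinations of diet and group on the horizontal axis; black bars are means. Apoe and Mlc1 sit high in most carrying cells, Ier2, Gad1 and Nr3c1 are raised in part of them, and Hsd11b2 and Snap25 are present in every cell.

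Apoe, which carries lipid between brain cells, had the largest pooled difference of the genes the rule did not use, though within low sodium Wif1 (7.87), Itih5 (6.83), Pla2g7 (6.45) and Sparc (6.28) differed by more. It was at 28.8 to 2435 CPM in carrying cells (median 541) and at 0 to 263 CPM in clean cells (median 0). In low-sodium neurons 3, 9 and 30 it was at 66.1, 541 and 588 CPM. The means were 8.84 ± 1.85 (SD, n = 13 cells) and 2.27 ± 2.81 (SD, n = 47 cells) on the log2(CPM + 1) scale, a difference of 6.56, with 6.54 in chow and 6.02 in low sodium. Apoe exceeded 10 CPM in all 13 carrying cells (interval 75.3% to 100%) but also in 16 of 47 clean cells (34.0%, 20.9% to 49.3%), so the groups overlap. Among the 11515 genes, not 1 had every carrying cell above or below every clean cell.

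The 15 genes with the largest differences were for the most part genes known from astrocytes. After Apoe came Sparc, a matrix protein also made by vessel cells (difference 6.23), Mlc1, a membrane protein of astrocyte end-feet (6.04), Gpr37l1, an astrocyte receptor (5.98), Itih5, a matrix protein (5.87), and Pla2g7, a lipase (5.84). Igfbp5, which binds insulin-like growth factors, differed by 5.83 and Wif1, a secreted Wnt inhibitor, by 5.71. The receptor phosphatase Ptprz1 (5.55), the syndecan Sdc4 (5.43), the matrix protein Reln (5.35), the potassium channel Kcnj10 (5.28), the selenium carrier Sepp1 (5.26) and the calcium-binding protein S100b (5.20) were also among them. Reln exceeded 10 CPM in 10 of 13 carrying cells and in 0 of 47 clean cells. It was above 0 in 10 carrying and 2 clean cells, so it passed the filter through the carrying cells. Reln was also picked by its difference, so the split is no separate result. Wif1 was at 0 in chow neurons 18, 29, 36 and 59 and at 3258 CPM in chow neuron 21, whereas Apoe exceeded 10 CPM in each of these 5 cells.

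Genes whose level followed the mean of Slc1a3, Aqp4 and Gja1 most closely over the 65 cells were then ranked. Spearman's rho was 0.85 for Mlc1, 0.80 for Sdc4, 0.79 for Zfp36l1, an RNA-binding protein, 0.77 for Ptprz1 and Itih5, 0.76 for Nfib, a transcription factor of gliogenesis, and 0.75 for Sparc. It was 0.74 for Plxnb1, a semaphorin receptor, for Slc38a3, a glutamine exporter, and for the tetraspanin Cd9. The median rho of all tested genes was 0.09. These values describe 65 cells that share depth and scaling, and many values at 0.

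The astrocyte genes were then read by role. Of 7 measured genes of glutamate and glutamine handling, 4 were higher: the mitochondrial carrier Slc25a18 (difference 4.76), Slc38a3 (4.74), the cystine and glutamate exchanger Slc7a11 (4.42) and the glutamate transporter Slc1a2 (2.75). Glul, glutamine synthetase, was not among them: its median was 42.9 CPM in carrying and 35.3 CPM in clean cells. Of 9 genes of gap junctions, ion and water transport, 6 were higher, among them Kcnj10, Hepacam, which anchors Mlc1 (4.31), the connexin gene Gjb6 (3.54) and the sodium pump subunit Atp1b2 (3.34). The medians over these lists were 2.75 and 3.34, and 4 genes of each list passed after each diet's median was subtracted.

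Of 14 lipid genes, 6 were higher (median difference 1.09), against 14.5% of all genes, a share that also applies to the lists below. Among the 6 were Apoe, the fatty acid binding protein Fabp7 (4.45) and the cholesterol esterifying enzyme Lcat (3.57). The others were the acyl-CoA binding protein Dbi (2.61), the cholesterol exporter Abca1 (2.40) and Apod (2.37). Of 14 genes of glial transcription and Notch signalling, 12 were higher (median 3.34), led by Nfib (5.17), Id3, an inhibitor of differentiation (4.79), Nfia (4.11), Rfx4 (3.81) and Id2 (3.77). Of 11 genes of secreted and matrix proteins 6 were higher (median 1.67), among them Bcan, a brain proteoglycan (3.77), Ptn, a growth factor (3.63), and Agt, the angiotensin precursor that astrocytes make (3.26). Agt exceeded 10 CPM in 5 of 13 carrying and 0 of 47 clean cells, and was named here for the size of its difference. Of 7 filament and reactive genes 3 were higher (median 1.76): Vim, an intermediate filament protein (5.01), Gfap, the classic astrocyte filament (3.48), and Nes (3.13). Gfap exceeded 10 CPM in 7 of the 13 carrying cells, and the other 6 were at or below that level.

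Metallothioneins bind zinc and copper and are switched on by metals and by glucocorticoids. Mt1 and Mt2 lie side by side on chromosome 8 and were both higher in carrying cells, so the 250 bases before each gene's start are shown, with matches to the core of the metal response element (TGCACNC or TGCGCNC, either strand) in capitals. The sequences are from RefSeq on GRCm38.p6, plus strand, at chr8:94178839-94179088 for Mt1 and chr8:94172368-94172617 for Mt2.
Mt1: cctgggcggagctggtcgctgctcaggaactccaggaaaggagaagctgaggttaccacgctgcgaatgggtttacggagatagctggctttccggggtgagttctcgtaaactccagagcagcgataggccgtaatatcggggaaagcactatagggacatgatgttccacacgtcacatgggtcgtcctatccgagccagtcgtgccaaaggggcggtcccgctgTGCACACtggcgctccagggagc
Mt2: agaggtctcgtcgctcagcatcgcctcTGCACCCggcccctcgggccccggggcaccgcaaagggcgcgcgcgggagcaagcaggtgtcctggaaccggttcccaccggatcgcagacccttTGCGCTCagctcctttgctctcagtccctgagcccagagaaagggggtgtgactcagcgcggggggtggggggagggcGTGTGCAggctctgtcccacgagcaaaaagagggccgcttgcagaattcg
The Mt1 window held 1 match and the Mt2 window 3. The windows end at the RefSeq starts, whereas GENCODE M21 has the starts at 94179082 for Mt1 and 94172664 for Mt2. By these starts the Mt1 window runs past its start and the Mt2 window ends short of it. Bases outside the windows were not searched, so the 2 counts do not compare the whole promoters. Of 32851 such windows in the RefSeq set, 21.4% held at least 1 match and 1.26% held 3 or more. A match is a description of the letters and not a bound site. Among the 15 genes with the largest differences, 13 had windows in the table, and 4 of the 15 windows held this motif. The SOX core ACAANG was in 4 of these 15 windows, against 36.3% of all windows.

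Mt1 was at 16.1 to 942 CPM in carrying cells (median 155) and at 0 to 258 CPM in clean cells (median 10.5), a difference of 4.10 on the log2(CPM + 1) scale. In low-sodium neurons 3, 9 and 30 it was at 29.7, 131 and 338 CPM. All 13 carrying cells and 24 of 47 clean cells exceeded 10 CPM, so Mt1 is found in clean neurons too. The lowest carrying value, 16.1 CPM in chow neuron 45, is that of 1 read. Mt2 was at 0 to 354 CPM (median 51.1) in carrying and 0 to 113 CPM (median 0) in clean cells, a difference of 4.07. Mt3, the metallothionein that neurons also make, exceeded 10 CPM in all 60 compared cells and differed by 0.70, which did not reach the limit. The rho of Mt1 with Mt2 was 0.74 over 65 cells and 0.58 over the 47 clean cells. Of 9 metal-binding and metal-transport genes 5 were higher, against 14.5% of all genes (median 1.46). Among the 5 were the zinc transporter Slc39a12 (4.50) and ceruloplasmin, Cp (2.45). After each diet's median was subtracted 3 were higher, against 7.06% of all genes.

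Several genes used as astrocyte markers stood at a high level in clean neurons as well. Clu, clusterin, was at 141 to 1858 CPM (median 545) in clean and 274 to 1758 CPM (median 657) in carrying cells, a difference of 0.14. Aldoc, a glycolytic enzyme, Sparcl1, a secreted synapse protein, and Mt3 exceeded 10 CPM in 47 of 47 clean cells and differed by 0.79, 0.70 and 0.70. Cspg5 and Gpc5, both proteoglycans, exceeded 10 CPM in 43 and 40 of the clean cells, with differences of -0.56 and -0.51, short of the limit. Ndrg2, a gene of astrocyte differentiation that is also in the marker list, exceeded 10 CPM in 43 of 47 clean cells. It was at 129 to 989 CPM (median 322) in carrying and at 0 to 630 CPM (median 148) in clean cells, a difference of 1.69 that passed the limit but not after the diets' medians were subtracted. The groups thus overlap in Clu, Aldoc, Sparcl1 and Ndrg2.

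**Figure D3:**
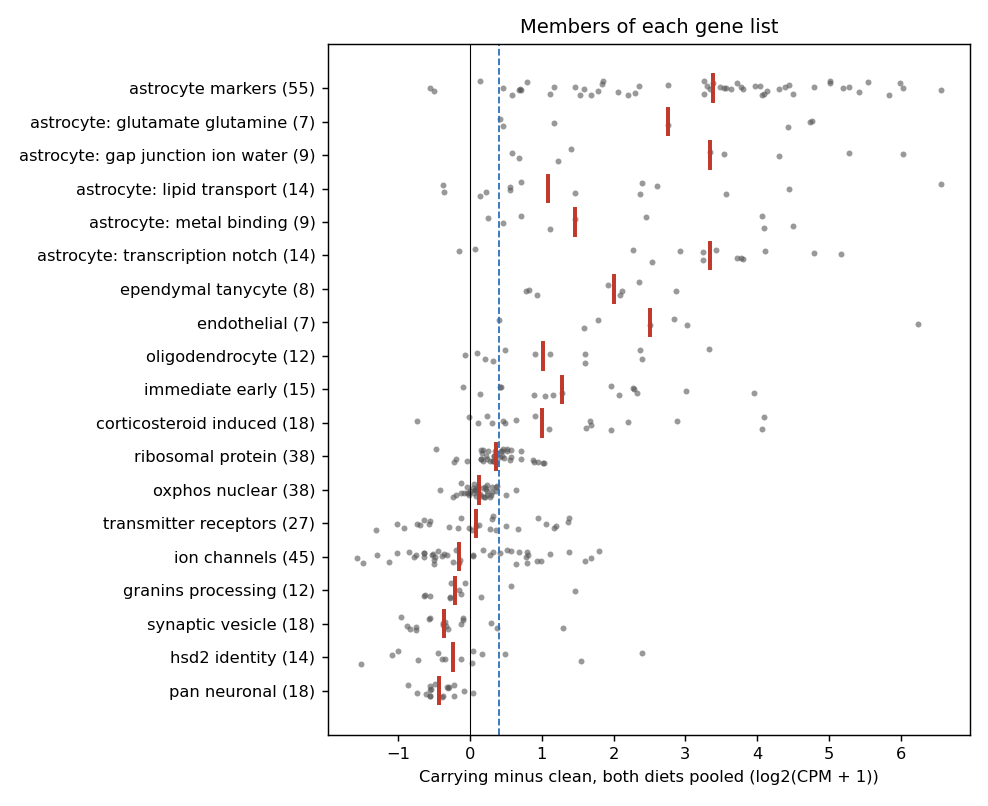
Each grey point is a measured gene of a list (number in parentheses), placed by its difference, carrying minus clean, on the log2(CPM + 1) scale; red bars are list medians and the dashed blue line is the median of all tested genes, 0.40. Astrocyte lists reach from 1.09 to 3.39 at the median, while pan-neuronal, HSD2 identity and synaptic vesicle lists lie below the dashed line.

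Transcripts known from other cells of the tissue were examined next. Ependymal cells line the ventricle next to the NTS and carry motile cilia. Of 8 measured ependymal markers 6 were higher in carrying cells, against 14.5% of all genes, and 3 were after each diet's median was subtracted (median difference 2.01). The larger differences were those of Dynlrb2, a dynein light chain (2.87), Foxj1, the regulator of motile cilia (2.35), and the ciliary kinase Ak7 (2.12). At least 2 of Foxj1, Tmem212, Dynlrb2 and Ak7 exceeded 10 CPM in 7 of 13 carrying cells and in 0 of 47 clean cells. The 7 were chow neurons 18, 20, 35, 55 and 66 and low-sodium neurons 9 and 30, all from the set with 40 or more astrocyte markers. These 4 genes are all among the 6 called higher, so the 7 against 0 cells are no separate result. Over all 8 measured markers, at least 3 exceeded 10 CPM in 8 of 13 carrying and 5 of 47 clean cells. At least 2 did in 10 carrying and 22 clean cells.

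Of 7 measured endothelial markers 5 were higher, against 14.5% of all genes, and 4 after the subtraction, against 7.06% (median 2.51). Among the 5 was Sparc, which is also in the astrocyte matrix list. Cldn5, the tight-junction protein of brain vessels, was at 1168 CPM in chow neuron 18, 592 CPM in low-sodium neuron 9, 237 CPM in chow neuron 55 and 90.3 CPM in chow neuron 29, and was listed at 0 in the other 9 carrying cells. Its highest value in a clean cell was 7.47 CPM. Cldn5 or Ly6c1, another vessel gene, exceeded 10 CPM in 5 of 13 carrying and 1 of 47 clean cells. Both genes are among the 5 called higher. Over all 7 measured endothelial markers, at least 3 exceeded 10 CPM in 13 of 13 carrying and 15 of 47 clean cells. Apoe exceeded that level in 13 of 13 carrying cells.

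Oligodendrocyte transcripts were found in both groups. Of 12 measured markers 4 were higher, namely Trf, Mal, Apod and Cryab, against 14.5% of all genes (median 1.01). After the subtraction 3 were higher, against 7.06% of all genes. Mbp, the myelin basic protein gene, exceeded 10 CPM in 11 of 13 carrying and 39 of 47 clean cells and differed by 0.32. Of 3 markers of oligodendrocyte precursors none passed the limit, and of 4 mural markers Pdgfrb alone did (0.81 pooled, 1.16 in chow and 1.06 in low sodium), with a difference of -0.62 by the log2 ratio of mean CPM. Lama2 was the 1 of 2 fibroblast genes to pass, and neither of 2 blood genes did. After the subtraction 0 mural and 0 fibroblast genes passed. The 17 microglia genes of the list were not analysed here.

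Of 3 measured genes of GABA and glycine neurons, Gad1 and Gad2 were higher (differences 2.52 and 1.96, list median 1.96), against 14.5% of all genes. Gad1 and Gad2 encode the enzymes that make GABA, while HSD2 neurons use glutamate. Gad1 was at 436, 286, 175 and 14.4 CPM in chow neurons 55, 59, 20 and 29, at 143 CPM in low-sodium neuron 9 and at 5.5 CPM in low-sodium neuron 3. It was listed at 0 in the other 7 carrying cells, and its highest value in a clean cell was 48.3 CPM. Gad2 was at 328, 292, 156 and 107 CPM in chow neuron 59, chow neuron 55, low-sodium neuron 9 and chow neuron 20. Gad1 or Gad2 exceeded 10 CPM in 5 of 13 carrying and 5 of 47 clean cells, and both together in 4 carrying and 1 clean cell. Of 8 measured markers of other neuron types none passed the limit (median 0.44).

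Immediate early genes, which are switched on within minutes by activity or by stress and also by tissue digestion, were also examined. Of 15 measured, 10 were higher (median 1.29) and none lower, against 14.5% and 0.278% of all genes. After each diet's median was subtracted 9 were higher, against 7.06% of all genes. Ier2 was at 0 to 234 CPM in carrying cells (median 51.8) and exceeded 10 CPM in 8 of 13 (61.5%, 31.6% to 86.1%), against 1 of 47 clean cells (2.13%, 0.0539% to 11.3%). In low-sodium neurons 3, 9 and 30 it was at 8.5, 234 and 51.8 CPM. The carrying cells at 0 for Ier2 were chow neurons 29, 36, 45 and 59. Fos was at 0 to 2916 CPM (median 657) in carrying and at 0 to 1911 CPM (median 108) in clean cells, a difference of 2.28, and the transcription factor gene Egr1 differed by 3.01. Jun, Junb and Jund, by contrast, exceeded 10 CPM in 12 to 13 carrying and 41 to 47 clean cells and did not pass the limit. At least 9 of the 15 genes exceeded 10 CPM in 10 of 13 carrying and 15 of 47 clean cells. Number of detected genes, ependymal markers and Gad1 were higher in some of the same cells, and their part in the immediate early values was not tested.

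Neuronal genes were present in every carrying cell: Snap25 and Syt1 both exceeded 10 CPM in 13 of 13 carrying and 47 of 47 clean cells. Of 18 pan-neuronal genes none passed the limit in either direction, 17 had a pooled difference below 0, and the median was -0.44, against 0.40 for all genes. By the pooled difference alone 24.0% of the tested genes were at 1 or more and 2.2% at -1 or less. Snap25, a protein of vesicle fusion, was at 560 to 1675 CPM (median 843) in carrying and 455 to 2916 CPM (median 1192) in clean cells. The difference was -0.30 on the log2(CPM + 1) scale. Syt1, the calcium sensor of release, differed by -0.56, Map1b, a microtubule protein, by -0.55, and Nefl, a neurofilament, by -0.73. Relative to the median of all genes, 3 of the 18 (Nefl, Tubb3 and Nefm) passed the limit downward.

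The summed level of the 18 pan-neuronal genes was 7448 to 17285 CPM in carrying cells (median 9581) and 7095 to 39349 CPM in clean cells (median 15378). It was below the clean median in 12 of 13 carrying cells and within the clean range in all 13. Fewer neuronal transcripts and more RNA from another source cannot be told apart on a scale where each cell's values are relative to its total. Of 18 synaptic vesicle genes and 12 granin and peptide-processing genes none passed the limit, with medians of -0.36 and -0.21. Scg2, a granin of dense-core vesicles, differed by -0.13, Cpe, which trims peptide hormones, by -0.28, and Cplx1, a regulator of vesicle fusion, by -0.88. The groups overlap in each of these genes.

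A list of genes used here for HSD2 identity was examined next. Of 14 measured 1 was higher and 0 lower, against 14.5% and 0.278% of all genes. After each diet's median was subtracted 1 was higher and 4 lower, against 7.06% and 2.23%. Not every member marks most of these neurons. Nr3c1, Dbh, Lmx1b, Nmb and Slc18a2 exceeded 10 CPM in 20, 21, 7, 12 and 22 of 47 clean cells. Hsd11b2 was at 84.8 to 729 CPM (median 267) in carrying and 107 to 5220 CPM (median 600) in clean cells, and exceeded 10 CPM in all 60. In low-sodium neurons 3, 9 and 30 it was at 719, 205 and 211 CPM. The difference was -1.08, with -1.25 in chow and -0.75 in low sodium, so the call in both diets was not reached. It was reached after each diet's median was subtracted, as it was for Agtr1a, the angiotensin II receptor (-1.36 in chow and -0.49 in low sodium), Tlx3 (-1.52) and Lmx1b (-0.73), both transcription factors. Tlx3 exceeded 10 CPM in 1 of 13 carrying and 14 of 47 clean cells, and Lmx1b in 0 of 13 and 7 of 47. Nr3c2, the mineralocorticoid receptor, exceeded 10 CPM in 13 of 13 carrying and 43 of 47 clean cells (difference -0.44). Slc17a6, the vesicular glutamate transporter VGLUT2, was at 170 to 879 CPM in carrying and 135 to 1448 CPM in clean cells (-0.35).

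Nr3c1, the glucocorticoid receptor, was the only gene called higher among the 14 measured genes of that list. Hsd11b2 guards the mineralocorticoid receptor from glucocorticoids, so the level of their own receptor in HSD2 neurons is of interest. It exceeded 10 CPM in 11 of 13 carrying cells (84.6%, 54.6% to 98.1%) and in 20 of 47 clean cells (42.6%, 28.3% to 57.8%). The range was 0 to 118 CPM (median 52.9) in carrying and 0 to 223 CPM (median 4.62) in clean cells. In low-sodium neurons 3, 9 and 30 it was at 36.3, 98.8 and 102 CPM. The difference was 2.39 over both diets, 2.05 within chow, 3.63 within low sodium and 2.49 with all cells thinned to the same depth. The neuropeptide gene Gal differed by 0.40 in chow and 4.32 in low sodium and was not called.

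**Figure D4:**
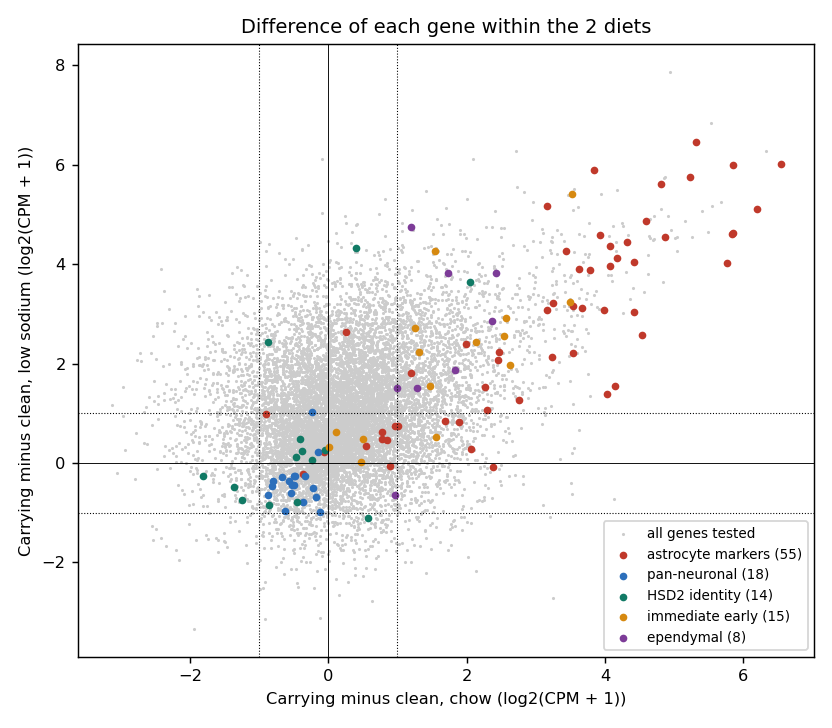
Each point is a gene, with its difference, carrying minus clean, among chow cells (horizontal) and low-sodium cells (vertical) on the log2(CPM + 1) scale; dotted lines mark differences of 1 and -1. Grey points are the 11515 tested genes and colours mark 5 lists. Astrocyte markers lie mostly in the upper right corner, while pan-neuronal genes lie mostly below 0, with medians of -0.50 in chow and -0.43 in low sodium, and the grey cloud is shifted upward by 0.96 in low sodium.

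Both housekeeping lists had medians below that of all genes in the main calculation, pooled and within low sodium. Of 38 nuclear genes of oxidative phosphorylation and 38 ribosomal protein genes none passed the limit, with pooled medians of 0.12 and 0.36 against 0.40 for all genes. Within low sodium the medians were 0.05 and 0.38, against 0.96 for all genes. When cells of high CPM sum were left out, the pooled medians were -0.07 and 0.06 and that of all genes stayed at 0.40. With thinned reads the pooled medians were 0.34 and 0.51, against 0.49 for all genes. Ion channel and transmitter receptor genes had medians of -0.15 and 0.08. Of 45 channel genes 4 were higher, among them the potassium channel genes Kcnd3 and Kcnn2, and of 27 receptor genes Gabrq and Adra2a were, in both cases a smaller share than the 14.5% of all genes. After each diet's median was subtracted 0 of either list were higher, and 4 channel genes and 1 receptor gene were lower. Kcnd3 exceeded 10 CPM in 7 of 13 carrying and 13 of 47 clean cells, and Kcnn2 in 5 and 10. The signs of the channel, receptor and oxidative phosphorylation medians differed between settings: with thinned reads the channel median was 0.07, and with the log2 ratio of mean CPM the other two were -0.29 and -0.06.

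The 32 genes that were lower within both diets were few and formed no list named here. Sema4d, a membrane semaphorin, was at 0 to 86.6 CPM in carrying cells (median 1.41) and at 0 to 1184 CPM in clean cells (median 29.5), a difference of -2.67. It exceeded 10 CPM in 3 of 13 and 35 of 47 cells. Hmga1, a chromatin protein, differed by -2.41, Rad51d, a DNA repair gene, by -2.19, Lrrc8b, a subunit of volume-regulated anion channels, by -2.11, and Trpv2, a cation channel, by -2.05. Zfp251, Osbp2, Pwp2, Coch, Zim1, Ptpro, Rftn1, Vav3, Nrg1 and Ldoc1l followed, between -1.90 and -1.57. Nrg1 encodes neuregulin, an axonal signal to glia, and exceeded 10 CPM in 6 of 13 carrying and 34 of 47 clean cells. When clean cells of high CPM sum were left out, the differences within low sodium were -0.70 for Hmga1, -0.99 for Lrrc8b, -0.81 for Vav3 and -0.17 for Ldoc1l, so these 4 genes did not keep the call. The number of lower genes was then 24, and without low-sodium neuron 3 it was 68.

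The last comparison was between diets, with and without the carrying cells, since 10 of them ate chow and 3 the low sodium diet. A list of 18 measured genes known to be induced by corticosteroids was used, of which Ndrg2, Mt1, Mt2 and Glul are also astrocyte markers. Over all 65 cells the median difference, low sodium minus chow, was -0.44, and 12 of 18 genes were lower in low sodium. With the 13 carrying cells alone left out, a choice made after seeing the data, the median over 52 cells was -0.25, and 11 of 18 were lower. Over the 47 clean cells, which lack the 5 cells between the groups as well, the median was 0.05, and 9 of 18 were lower. The median of all tested genes was -0.12 over all cells and -0.07 over clean cells. The list medians over all and over clean cells were -0.38 and -0.14 when cells whose CPM summed to over 1200000 were left out. For the astrocyte markers the median was -0.88 over all cells, -0.26 without the carrying cells and -0.01 over clean cells. The cells left out were chosen by astrocyte transcripts and most of the carrying cells ate chow, so this shift follows from the choice and is no finding. The same applies to the astrocyte markers within the corticosteroid list. All of these differences rest on 1 sample per diet.

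**Figure D5:**
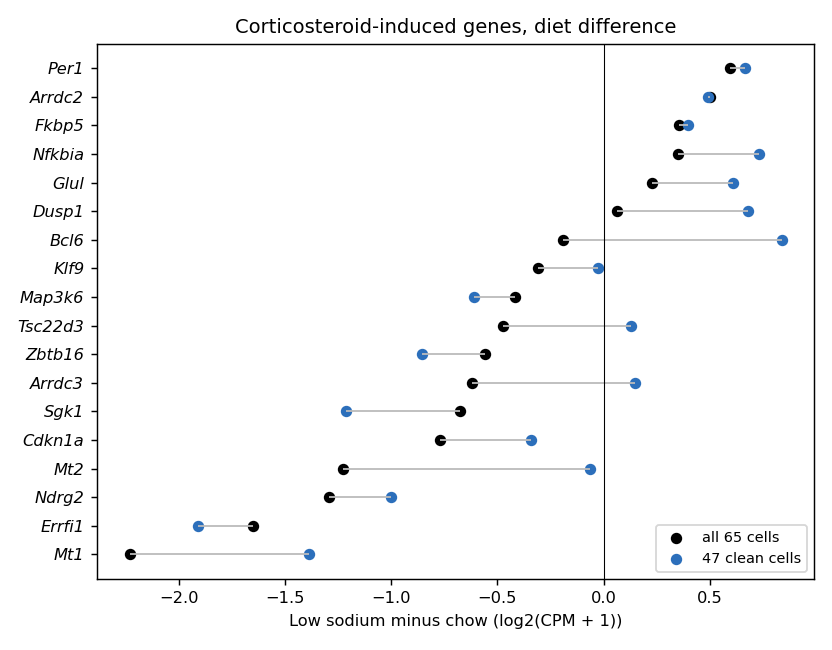
Each row is a corticosteroid-induced gene, placed by its mean log2(CPM + 1) in low-sodium minus chow cells, over all 65 cells (black) and over the 47 clean cells (blue). Mt2 goes from -1.23 to -0.06 and Bcl6 from -0.19 to 0.84, while Errfi1 and Sgk1 stay below 0 in both.

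Single genes differed in this. Mt2 was at -1.23 over all cells, -0.48 without the carrying cells and -0.06 over clean cells. Mt1 was at -2.24, -1.63 and -1.39 (-0.83 over clean cells when those of high CPM sum were left out). Ndrg2 was at -1.29 over all cells and -1.14 without the carrying cells. Errfi1, a feedback inhibitor of growth factor receptors, was at -1.65 in both, and Sgk1, the kinase that aldosterone induces in kidney, at -0.68 and -1.52, so the lower values of these 2 genes in low sodium were as large without the carrying cells. Apoe was at -2.31, -1.09 and -0.41 over all, non-carrying and clean cells, and Vim at -2.28, -1.48 and -1.04. Both are astrocyte markers, so their shifts are likewise tied to the choice of cells. Of the immediate early genes, Egr1 was at -0.02, 0.58 and 1.22 (0.22 over clean cells when those of high CPM sum were left out) and Ier2 at -0.82, -0.37 and 0.03.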

How the data were processed

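Single HSD2 neurons were sequenced, 33 from mice on chow and 32 on a low sodium diet. The submitters' processing notes name featureCounts 1.4.6, HISAT2 2.0.5, SAMtools 0.1.19, Picard 2.5.0 and bcl2fastq, and the builds GRCm38 and mm10. For settings, annotation and scaling total nothing is given in the sources used here. The authors deposited log2(CPM + 1) values. Here CPM were recovered by undoing the log2. In each cell 100% of values up to 20 steps were whole multiples of the smallest step, to within 0.25 of it, and 1 read was set equal to that step. Of 12015 lines, 11875 carry a gene name used once and were analysed. A difference is the mean log2(CPM + 1), pseudocount 1 CPM, of carrying minus clean cells. A gene was called higher or lower at a difference of at least 1 or at most -1 within both diets, among genes above 0 in at least 10 compared cells; list counts cover every measured member. No test was possible between cells of 1 sample per diet. The members, lists and rules were chosen with earlier results of these data known. Named genes are the rule genes, Apoe, Vim, Mt1, Ndrg2, the 15 highest and 15 lowest called, up to 5 members per list by size, all identity genes, abundant neuronal genes and the 10 with the highest rho; other list members named (Clu, Aldoc, Sparcl1, Mt3, Cspg5, Gpc5, Glul, Mbp, Jun, Junb, Jund, Errfi1 and Sgk1) were chosen after their values were seen. A few genes under this rule are not reported here. The calculation was tested on simulated data. Analyses used Python 3.11.15, NumPy 2.4.6, pandas 2.3.3 and SciPy 1.17.1. Alternatives were other pseudocounts, size factors, thinning, ratios of mean CPM, other filters, other limits of the rule and leaving out cells.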

Additional observations from a re-analysis of the deposited data

Results flagged for a closer look

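Chow neuron 63 was left out of the comparison because only Slc1a3 (123 CPM) of the 3 rule genes exceeded 10 CPM, with Aqp4 listed at 0 and Gja1 at 3.16 CPM. It held 42 of 55 other astrocyte markers above 10 CPM, against at most 28 in any clean cell, so a signal appears in a cell that neither group used. Apoe was at 2105 CPM in this cell, above the highest clean cell (263 CPM), Foxj1 at 71.3 CPM and Cldn5 at 274 CPM.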

How the results depend on the processing

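Of 4810 alternative values of 172 named genes 4767 moved by less than the spread between cells. For genes not called, a change of sign within that spread was counted among them. The spread is an SD over cells on the log2(CPM + 1) scale, 2.08 for Pdgfrb and 2.77 for Nr4a1, so large shifts fall within it. Many of the settings left out only 1 carrying cell. The count of 4767 is thus no measure of how firm the values are. Among called genes 2 values turned: with the log2 ratio of mean CPM plus 1, Pdgfrb was at -0.62 and Nr4a1 at -0.44. Of 784 alternative list medians 749 moved by less than the spread. The counts of genes higher and lower were 359 and 8 with a pseudocount of 10 CPM, 2832 and 68 with 0.1 CPM, 678 and 275 with the log2 ratio, 2764 and 253 with the pooled difference alone, and 813 and 257 minus the median over genes. The lower genes numbered 110 with thinned reads, 61 with a rule limit of 50 CPM, 75 with all 3 rule genes required, and 67 without the 4 carrying cells with fewer than 30 astrocyte markers; the last setting and the subtraction of the median were chosen after seeing the data. With thinned reads 960 of the 1665 higher and 20 of the 32 lower genes were called again. With a pseudocount of 10 CPM the median difference was 1.83 for astrocyte markers, 1.70 for glutamate genes, 1.84 for gap junction, ion and water genes, 0.64 for metal binding, 1.54 for transcription and Notch, 0.76 for filaments, 0.78 for secreted matrix, 1.51 for endothelial, 0.69 for fibroblast, 0.88 for ependymal and 1.21 for GABA and glycine genes. With 0.1 CPM it was, for the first 10 of these lists in the same order, 5.23, 3.78, 4.54, 2.59, 5.24, 2.93, 2.72, 3.41, 3.06 and 3.14. With the log2 ratio it was 1.70 for glutamate, 1.89 for gap junction, 0.55 for metal binding, 3.50 for endothelial, -1.46 for mural, 2.69 for fibroblast, 2.73 for ependymal and 4.36 for GABA and glycine genes. A limit of 50 CPM gave 4.29 for astrocyte markers and 4.61 for transcription, all 3 rule genes gave 4.25 for transcription, the cells with more markers alone gave 4.30 and 4.62, and subtraction of the median gave -0.84 for pan-neuronal genes. The causes of these shifts were not tested. Leaving out each carrying cell in turn gave 1426 to 1983 higher and 32 to 68 lower genes, and medians of 3.21 to 3.68 for astrocyte markers, 1.88 to 2.73 for endothelial, 0.93 to 1.72 for immediate early, 0.50 to 1.23 for oligodendrocyte and -0.49 to -0.39 for pan-neuronal genes. Leaving out cells with 3 or more markers of oligodendrocytes or of endothelium gave no value, since 0 carrying and 7 clean cells were left. No paired analysis was possible because neuron numbers only name cells and no test was run. Depth, 50072 reads in the shallowest carrying cell, limits what a value of 0 means there.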
